A study of Mus musculus with 18 samples.

Results

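Messenger RNA levels were compared between hearts of mouse embryos at E16.5 and at E9.5 (E stands for embryonic day, the number for days after conception), the last and the first stage of a developmental series of 18 RNA sequencing libraries. The 7 libraries were taken by their stage labels alone, 4 of E16.5 and 3 of E9.5. The comparison is described over the 18885 genes that passed a filter on low counts, which is every gene tested in the series, of 49315 identifiers in the files. The embryos were wild-type C57BL/6, an inbred strain, no treatment is named in the labels, and each library of either stage was a pool of males and females. RNA came from dissected hearts and not from sorted cells, so each level is a mean over heart muscle, endocardium, vessels, epicardium, connective tissue and blood. In such bulk samples, fewer cells of a type and less RNA per cell cannot be told apart. How many embryos made a pool, and whether pools of a stage share a litter, is not in the labels. The p-values therefore rest on the spread between these pools, part of which may be technical. The series' title names the mevalonate pathway, the route from acetyl-CoA to sterols and prenyl groups, and the division of heart muscle cells, and the stage comparison asks which transcripts changed between a heart that is still a looping tube and one close to birth.

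At E9.5 the mouse heart is a looping muscular tube lined by endocardium, separated from the muscle by a gelatinous matrix called cardiac jelly, and it still grows by the addition of progenitors of the second heart field. By E16.5 the chambers and valves are separated, the wall is compact and fed by coronary vessels, and fibroblasts, smooth muscle, nerves and macrophages have entered it. Heart muscle cells divide at both stages, and their sarcomeres, calcium stores and mitochondria mature over the same days. The blood also changes, with primitive red cells of the yolk sac giving way to definitive red cells of the liver.

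Total counts were 32550626 to 34109851 per library in E16.5 hearts and 30950152 to 32968212 in E9.5 hearts, and a count of 0 allows a level of up to 0.0880 to 0.0922 counts per 1000000 (CPM) in E16.5 libraries and 0.0910 to 0.0969 CPM in E9.5 libraries, for counting error only. Mitochondrially encoded transcripts took 4.65 to 6.44% of the counts in E16.5 libraries and 2.04 to 2.37% in E9.5 libraries, and haemoglobin transcripts 1.03 to 2.23% in E16.5 libraries and 0.498 to 0.791% in E9.5 libraries. The heart muscle genes Tnnt2, Myh6, Actn2 and Nkx2-5 were present in all 7 libraries, with Nkx2-5, the heart tube transcription factor, at 269 to 369 CPM in E16.5 hearts and 303 to 407 CPM in E9.5 hearts. All E16.5 libraries and E9.5 replicate 1 held 8 transcripts typical of activated macrophages (Atp6v0d2, Cd74, Chil3, Gpnmb, H2-Aa, Itgax, Mmp12 and Mmp13) at a summed 341 to 572 CPM in E16.5 hearts and 646 CPM in E9.5 replicate 1, while E9.5 replicates 2 and 3 had 0.582 and 0.840 CPM. On the principal components of the 2000 most variable genes, E9.5 replicate 1 lay at -40.0 on the first, between the other E9.5 libraries at -94.6 and -102 and the E16.5 libraries at 66.6 to 70.8. On the second, with 11.6% of the variance, it lay at 51.0 and apart from both. There the other E9.5 libraries lay at -19.0 and -17.3 and the E16.5 libraries at -19.7 to -10.2. Relative to the mean of E9.5 replicates 2 and 3, E9.5 replicate 1 had a median log2 ratio of 0.13 over the 25% of protein-coding genes with the shortest exons and -0.16 over the 25% with the longest. E16.5 was therefore also set against E9.5 replicate 1 alone, in a fit of the libraries of all stages that held these transcripts. Another fit held the kind of library, with or without these transcripts, as a term. Where a log2 fold change given with its standard error (after ±) differs from that value by more than 1.5 times, or where the call differs, the value is added and called against replicate 1.

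A gene was called changed at an adjusted p under 0.05 in edgeR's quasi-likelihood test with Benjamini-Hochberg adjustment over all genes tested. By this rule 12255 genes changed (64.9% of those tested), with 6069 higher in E16.5 hearts (32.1%) and 6186 lower (32.8%). The median log2 fold change over all genes tested was -0.005. The calls ran with exon length. Of the 25% of protein-coding genes with the shortest exons, 38.65% were higher and 26.83% lower. Of the 25% with the longest, 30.45% were higher and 42.69% lower. The median log2 fold changes of these sets were 0.21 and -0.13, and 0.09 and 0.04 against E9.5 replicate 1. The part of exon length in the calls of single genes and gene lists was not tested. A change of at least 2-fold was found for 5454 genes (28.9%), and here the rises were more numerous, 3401 (18%) against 2053 falls (10.9%). The imbalance widened with size: 1618 genes were at least 4-fold higher (8.57%) and 592 at least 4-fold lower (3.13%), and 380 were at least 16-fold higher (2.01%) and 129 at least 16-fold lower (0.683%). All E16.5 libraries lay above all E9.5 libraries for 31.4% of the genes tested and below them for 30.5%. Of the at least 16-fold rises 323 were protein-coding genes, 133 reached a mean of 10 CPM and 81 were on any of the 63 gene lists in use here, and of the at least 16-fold falls 100, 39 and 29. Their median number of reads in the stage with fewer was 8.0 over all libraries of that stage, so the size of many of these changes is less certain than their direction.

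**Figure D1:**
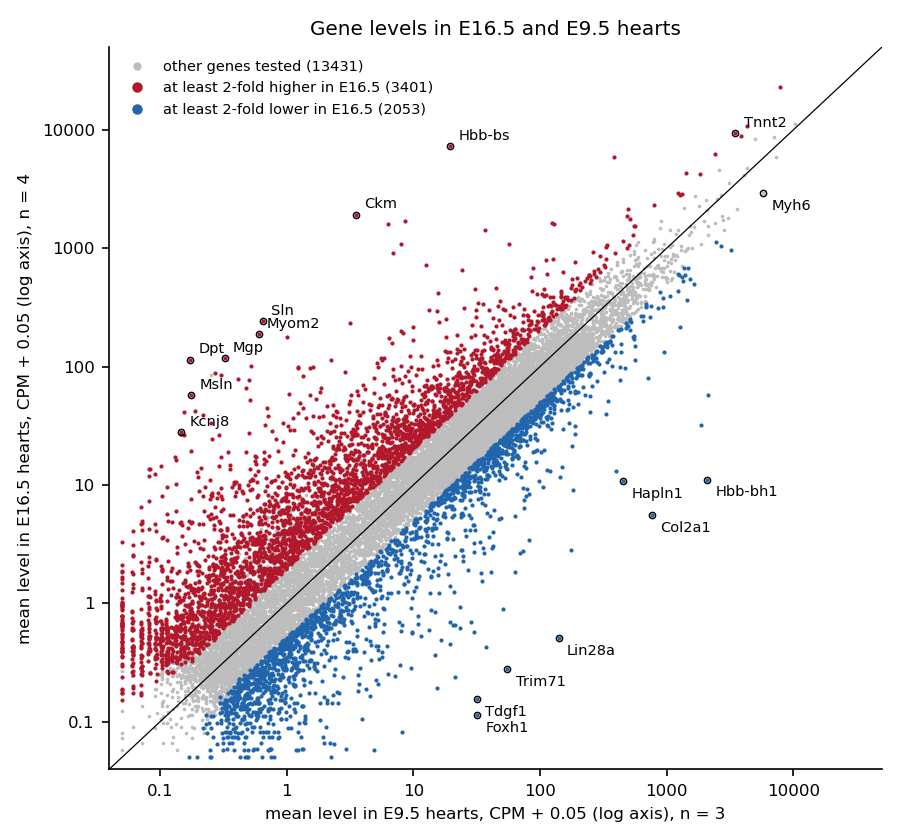
Mean level in E16.5 hearts (vertical, n = 4) against the mean level in E9.5 hearts (horizontal, n = 3) for each of the 18885 genes tested, in CPM on log axes after adding 0.05 CPM. Coloured points passed the test and changed at least 2-fold, 3401 above and 2053 below the diagonal of equal levels. Named points are genes of the text, mostly with large changes, beside Tnnt2 and Myh6 with log2 fold changes of 1.43 and -0.99.

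Among named protein-coding genes whose mean reached 10 CPM in either stage, with globin and ribosomal protein genes left out, the 15 largest rises and falls are given here. Dpt, which encodes dermatopontin, a collagen-binding matrix protein (chr1:164796644-164824266 of GRCm38), measured 130.4, 93.8, 126 and 106 CPM in E16.5 hearts, against 0.302, 0 and 0.0664 CPM in E9.5 hearts. It was close to absent at E9.5, with 12 reads in the 3 libraries together, and rose by 9.77 ± 0.56 in log2 (adjusted p = 6.17e-10, and 8.55 against replicate 1 and 11.63 without E9.5 replicate 1). Ckm, the muscle creatine kinase that regenerates ATP beside the myofibrils (chr7:19404776-19422841), measured 2121, 1739.7, 1674 and 2144 CPM in E16.5 hearts, against 5.83, 2.79 and 1.73 CPM in E9.5 hearts. Its lowest E16.5 library stood far above its highest E9.5 library (log2 fold change 9.11 ± 0.61, adjusted p = 7.13e-09, and 8.37 against replicate 1 and 9.73 without E9.5 replicate 1), and 15.5% of its exon length is shared with the gene A930016O22Rik. Msln, the surface protein mesothelin of the epicardium, measured 60.7, 50.3, 57.4 and 62.2 CPM in E16.5 hearts, against 0.151, 0.130 and 0.0996 CPM in E9.5 hearts (log2 fold change 8.78 ± 0.27, adjusted p = 4.17e-15). Mgp, matrix Gla protein, an inhibitor of calcification in vessel walls and valves, rose by 8.72 ± 0.31 in log2 (adjusted p = 3.19e-13), and Sln, sarcolipin, the atrial inhibitor of the calcium pump, by 8.64 ± 0.43 in log2 (adjusted p = 9.65e-11, and 7.89 against replicate 1 and 9.32 without E9.5 replicate 1). Myom2, the M-band protein of the mature sarcomere, measured 230.2, 168, 183 and 173 CPM in E16.5 hearts, against 0.694, 0.454 and 0.498 CPM in E9.5 hearts. These groups too did not overlap, and Myom2 rose by 8.41 ± 0.31 in log2 (adjusted p = 6.99e-13). The other largest rises were Fmo2, Yipf7, Asb11, Ahsg, Ptgds, Dhrs7c, Kcnj8 and Gpihbp1, at log2 fold changes of 8.08 to 8.60. Of these, Fmo2, Yipf7 and Ahsg had 3 reads each in all E9.5 libraries together, and their ratios of 430, 425 and 371 had 95% exact counting intervals of 147 to 2087, 145 to 2061 and 127 to 1803.

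Among the 15 largest falls, Foxh1, the nuclear partner of Nodal signalling (chr15:76668225-76669948), measured 0.0640, 0.0595, 0.0309 and 0.0977 CPM in E16.5 hearts, against 22.4, 25.1 and 48.1 CPM in E9.5 hearts. Tdgf1, the Nodal co-receptor Cripto, measured 0.0961, 0, 0.0309 and 0.293 CPM in E16.5 hearts, against 23.4, 22.5 and 48.7 CPM in E9.5 hearts. Both were near the counting floor in every E16.5 library and well above it in every E9.5 library, and they fell by 8.91 ± 0.45 in log2 (adjusted p = 8.61e-12) and by 8.22 ± 0.64 in log2 (adjusted p = 1.54e-08, and -9.46 without E16.5 replicate 4). Lin28a, an RNA-binding protein that blocks the maturation of let-7 microRNAs (chr4:134003330-134018841), measured 0.0961, 0.298, 0.617 and 0.814 CPM in E16.5 hearts, against 111, 119 and 191 CPM in E9.5 hearts (log2 fold change -8.26 ± 0.37, adjusted p = 1.84e-11). Col2a1, a fibrillar collagen best known from cartilage and made in the embryonic endocardial cushions, was the most abundant of the 15 largest falls, at 4.45, 6.13, 6.20 and 5.15 CPM in E16.5 hearts, against 619.7, 726 and 962 CPM in E9.5 hearts. It fell by 7.13 ± 0.20 in log2 (adjusted p = 4.17e-15), with no overlap between the stages. The others were Trim71, Pklr, Nptx2, Prtg, Igdcc3, Atp2a1, Aox4, Scn4b, Greb1, Hapln1 and Car4, at log2 fold changes of -7.91 to -5.34. Exons of Pklr, the liver and red cell pyruvate kinase, overlap those of Hcn3 over 22.0% of their length, and those of Atp2a1, the fast skeletal calcium pump, overlap Rabep2 over 21.9%, so their counts are less certain.

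Outside the mitochondrial genome, the 10 largest gains in mean CPM were Hbb-bs, Tnnt2, Hba-a1, Myh7, Myl2, Atp5b, Ckm, Myl3, H19 and Hbb-bt, and the 10 largest losses were Myh6, Acta2, Hbb-bh1, Hbb-y, Hba-x, Eno1, Hsp90ab1, Myl7, Hspa8 and Eef1a1. Tnnt2, cardiac troponin T, gained 5918 CPM, and Myh6, the fast alpha myosin heavy chain, fell by 2891 CPM. Among the losses were the chaperones Hsp90ab1 and Hspa8. Hsp90ab1 averaged 2129 ± 67.6 CPM in E16.5 hearts and 3621 ± 164 CPM in E9.5 hearts (mean ± SD, n = 4 and 3 here and below) and fell by 0.77 ± 0.07 in log2 (adjusted p = 1.10e-08). Hspa8 fell by 1.11 ± 0.08 in log2 (adjusted p = 5.25e-10). At the other end, 5 genes of at least 100 CPM had the intervals of the log2 fold change nearest to 0. They were Ociad1, Sdf4, Zfp91, Gnpat and Tmbim6, and Tmbim6 measured 281, 258, 268 and 277 CPM in E16.5 hearts, against 274, 254 and 276 CPM in E9.5 hearts, with a 95% interval of the log2 fold change from -0.12 to 0.15.

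Sarcomere genes rose in part and by unequal amounts. The sarcomere is the repeating unit of thick myosin and thin actin filaments, held at the Z-disc and M-band. Of 32 tested genes of the adult-type sarcomere, 23 rose and 5 fell, and their median log2 fold change was 0.79. Counts in this list and the lists that follow stand beside 32.1% higher and 32.8% lower of all genes tested. After Myom2, the largest rises were of Mb, the oxygen store myoglobin, and Myoz2, a Z-disc protein. Mb measured 1258, 869, 961 and 1284 CPM in E16.5 hearts, against 11.2, 6.69 and 5.88 CPM in E9.5 hearts (log2 fold change 7.10 ± 0.29, adjusted p = 3.17e-12). Myoz2 measured 235, 215, 191 and 222 CPM in E16.5 hearts, against 12.4, 9.74 and 7.31 CPM in E9.5 hearts (log2 fold change 4.45 ± 0.15, adjusted p = 7.74e-15). Neither overlapped between stages. The thin filament switch subunits rose less: Tnni3, cardiac troponin I, by 1.64 ± 0.12 in log2 (adjusted p = 7.05e-10), and Tnnt2 by 1.43 ± 0.11 in log2 (adjusted p = 1.30e-09). Actc1, cardiac actin and the most abundant member, measured 10909, 11719.5, 10254 and 12279 CPM in E16.5 hearts, against 9899.8, 9916 and 11317 CPM in E9.5 hearts, and the stages overlapped (log2 fold change 0.12 ± 0.08, adjusted p = 0.172). Nebl, a thin filament ruler of the Z-disc, fell by 1.42 ± 0.14 in log2 (adjusted p = 3.86e-08). Ttn, the giant spring protein titin, fell by 0.88 ± 0.29 in log2 (adjusted p = 0.0161, and 0.10 with adjusted p = 0.845 against replicate 1, -0.45 with adjusted p = 0.227 with the kind of library as a term, -0.76 with adjusted p = 0.0647 without E9.5 replicate 2 and -0.62 with adjusted p = 0.108 without E9.5 replicate 3). Ttn measured 595, 929, 720.4 and 605 CPM in E16.5 hearts, against 666, 1519 and 1749 CPM in E9.5 hearts, so that E9.5 replicate 1 lay within the E16.5 range and the other E9.5 libraries above it.

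Genes listed as early contractile isoforms of the heart mostly fell. Of 16 tested genes of early contractile isoforms, 11 fell and 3 rose (median log2 fold change -0.87). Acta1, skeletal actin, measured 78.9, 75.6, 76.3 and 91.2 CPM in E16.5 hearts, against 640.3, 673 and 834 CPM in E9.5 hearts (log2 fold change -3.15 ± 0.10, adjusted p = 4.17e-15). Acta2, smooth muscle actin, measured 896, 1037, 826 and 1096 CPM in E16.5 hearts, against 2979.8, 3029.6 and 3731 CPM in E9.5 hearts (log2 fold change -1.75 ± 0.10, adjusted p = 1.64e-11). Tagln, the smooth muscle protein transgelin, fell by 3.08 ± 0.19 in log2 (adjusted p = 2.21e-10). For these 3 genes every E16.5 library lay below every E9.5 library. Per kilobase of exon, in reads per kilobase per 1000000 (RPKM), skeletal actin stood at 52.4 RPKM in E16.5 hearts and 466 RPKM in E9.5 hearts, beside cardiac actin at 6978 RPKM in E16.5 hearts and 6414 RPKM in E9.5 hearts. The members that rose were Tnnt1, Myh7 and Tnni1, by 0.84, 0.74 and 0.68 on the log2 scale.

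The myosin heavy chains moved in opposite directions. Myh6 and Myh7, the fast alpha and slow beta chains, lie next to each other on chromosome 14 (chr14:54941921-54966927 and chr14:54970684-54994626 of GRCm38). Myh7 measured 8819.5, 10789.6, 7225 and 6369 CPM in E16.5 hearts, against 4413, 5077 and 5383 CPM in E9.5 hearts (log2 fold change 0.74 ± 0.14, adjusted p = 1.59e-04). Myh6 measured 2839.8, 3467, 2957 and 2389 CPM in E16.5 hearts, against 4772, 5894 and 6746 CPM in E9.5 hearts (log2 fold change -0.99 ± 0.16, adjusted p = 1.94e-05). Every E16.5 library was above every E9.5 library for Myh7 and below for Myh6, and 13.3% of the exons of Myh7 overlap other genes, among them its antisense transcript Mhrt. Per kilobase, the share of the alpha chain in the sum of both was 31.3 ± 2.58% in E16.5 hearts and 59.8 ± 1.77% in E9.5 hearts (mean ± SD, n = 4 and 3).

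Genes of the calcium store and of the cell's excitability rose in number and included some of the steepest changes. Contraction is triggered by calcium released from the sarcoplasmic reticulum, the internal store, after entry through channels of the surface membrane. Of 26 calcium handling genes, 17 rose and 6 fell (median 0.51 on the log2 scale). Casq2, the calcium-binding protein of the store, measured 872, 915, 866 and 966 CPM in E16.5 hearts, against 10.4, 6.36 and 3.82 CPM in E9.5 hearts (log2 fold change 7.03 ± 0.27, adjusted p = 8.79e-13, and 6.44 against replicate 1). Pln, phospholamban, the ventricular brake on the calcium pump, measured 1686, 1494, 1492 and 1687 CPM in E16.5 hearts, against 176, 132 and 78.5 CPM in E9.5 hearts (log2 fold change 3.62 ± 0.22, adjusted p = 2.89e-10). The stages were far apart for both. The pump itself, Atp2a2, measured 2552, 2613, 2616 and 2605 CPM in E16.5 hearts, against 2246, 2483 and 2779 CPM in E9.5 hearts, did not pass (log2 fold change 0.05 ± 0.08, adjusted p = 0.565) and overlapped between stages, and per kilobase Pln stood at 576 RPKM in E16.5 hearts and 46.8 RPKM in E9.5 hearts and Atp2a2 at 427 RPKM in E16.5 hearts and 412 RPKM in E9.5 hearts. Among calcium channels, Cacna1g, a T-type pore subunit, rose by 4.20 ± 0.20 in log2 (adjusted p = 4.79e-12). Cacna1h, the other T-type pore subunit of the list, fell by 1.53 ± 0.15 in log2 (adjusted p = 5.98e-08). Cacna1d, an L-type subunit of pacemaker and early muscle, fell by 1.84 ± 0.17 in log2 (adjusted p = 4.33e-08), and Cacna1s, the L-type subunit of skeletal muscle, by 3.57 ± 0.27 in log2 (adjusted p = 7.38e-10). Cacna1c, the main L-type subunit of ventricular muscle, rose by 0.42 ± 0.15 in log2 (adjusted p = 0.0235, and 0.24 with adjusted p = 0.134 without E9.5 replicate 1 and 0.33 with adjusted p = 0.0769 without E16.5 replicate 2).

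Of 24 potassium, sodium and pacemaker channel genes, 13 rose and 8 fell (median 0.91). Kcnj8, the pore of ATP-sensitive potassium channels that also marks pericytes, measured 28.5, 23.6, 28.5 and 31.1 CPM in E16.5 hearts, against 0.0604, 0.130 and 0.0996 CPM in E9.5 hearts (log2 fold change 8.14 ± 0.25, adjusted p = 3.21e-15, and 8.78 against replicate 1). Kcnip2, the accessory subunit of the transient outward current, rose by 5.09 ± 0.44 in log2 (adjusted p = 4.54e-08), and Kcnq1, the pore of the slow delayed rectifier, by 3.20 ± 0.12 in log2 (adjusted p = 4.37e-14). Hcn4, the main pacemaker channel, measured 41.2, 28.2, 55.9 and 46.5 CPM in E16.5 hearts, against 109, 175 and 205 CPM in E9.5 hearts. It was below every E9.5 library in every E16.5 library and fell by 1.92 ± 0.23 in log2 (adjusted p = 2.83e-06, and -1.34 against replicate 1). Scn4b, a sodium channel accessory subunit, fell by 5.54 ± 0.22 in log2 (adjusted p = 8.57e-14). In the adrenergic and muscarinic list, 13 of 16 tested members rose and 1 fell. Chrm2, the muscarinic receptor that slows the heart, measured 62.0, 61.6, 63.4 and 63.0 CPM in E16.5 hearts, against 3.65, 3.73 and 3.15 CPM in E9.5 hearts (log2 fold change 4.15 ± 0.17, adjusted p = 1.38e-13). Adrb1, the receptor for noradrenaline that speeds it, measured 21.4, 18.5, 18.9 and 21.0 CPM in E16.5 hearts, against 3.44, 2.86 and 2.22 CPM in E9.5 hearts (log2 fold change 2.81 ± 0.17, adjusted p = 2.47e-11). Receptors for both arms of the autonomic nerves were thus higher in every E16.5 library.

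At the cell borders, 7 of 19 intercalated disc genes rose, 5 fell and 7 did not pass (median log2 fold change -0.04). Of all genes tested 32.1% rose and 32.8% fell, so the counts of this list lie near the shares over all genes. Gja1, connexin 43, the gap junction protein of working muscle, measured 621, 603, 518 and 545 CPM in E16.5 hearts, against 98.5, 85.6 and 69.9 CPM in E9.5 hearts (log2 fold change 2.75 ± 0.12, adjusted p = 2.74e-13). Nrap, which anchors myofibrils at the disc, measured 276, 352, 281 and 285 CPM in E16.5 hearts, against 13.1, 15.7 and 11 CPM in E9.5 hearts (log2 fold change 4.49 ± 0.15, adjusted p = 1.13e-14). Gja5, connexin 40 of atria, conduction tissue and arteries, rose by 1.04 ± 0.12 in log2 (adjusted p = 2.23e-07). Ank3, Dsc2 and Tjp1 had the largest falls, at log2 fold changes of -1.60, -1.05 and -0.81, and Tjp1 stood at -0.34 against replicate 1. Des, the intermediate filament desmin, was the most abundant member that did not pass (708 ± 72.0 CPM in E16.5 hearts and 743 ± 13.2 CPM in E9.5 hearts).

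**Figure D2:**
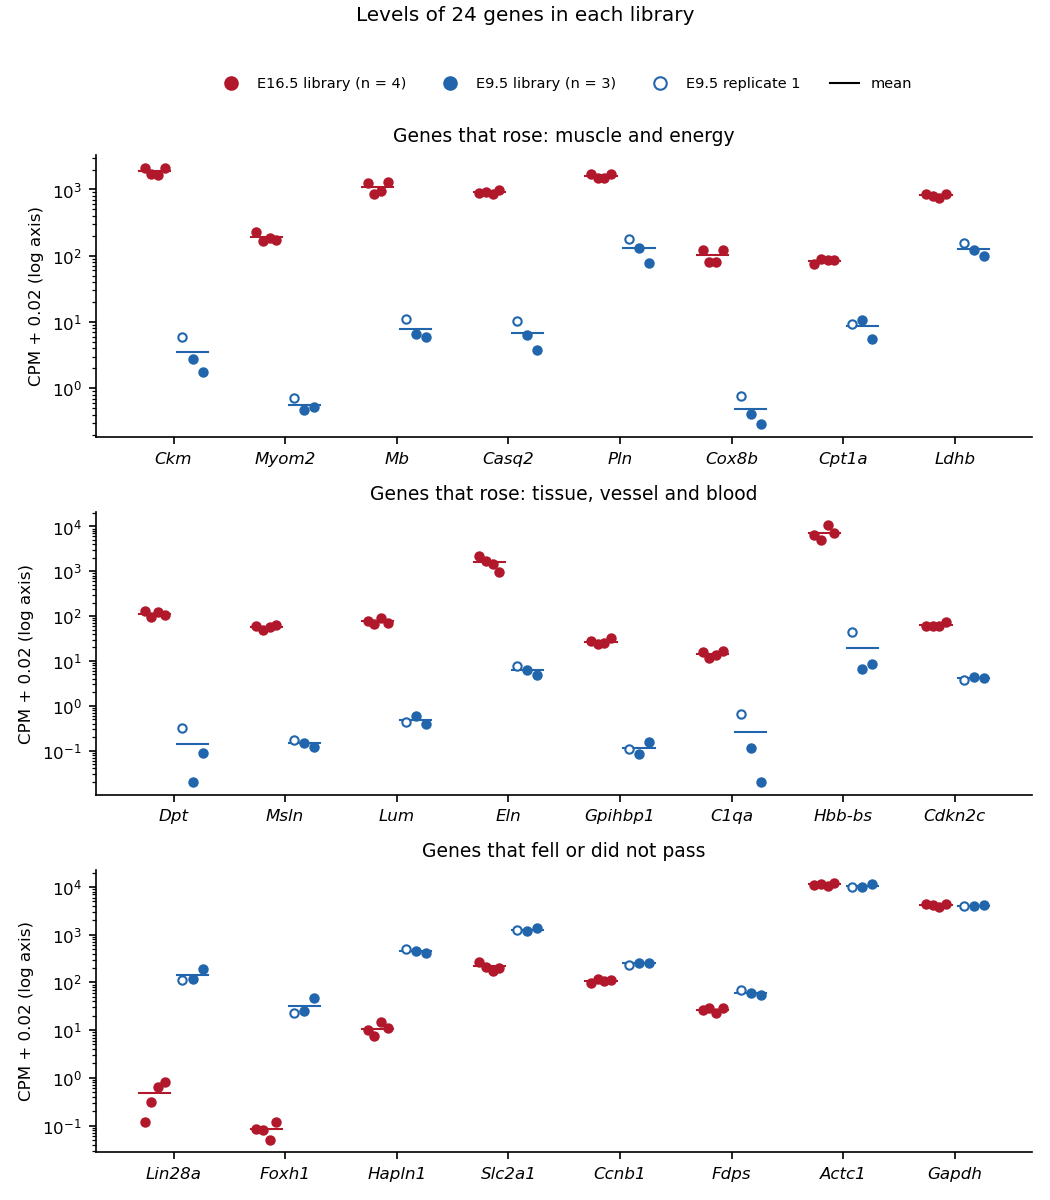
Levels of 24 genes in each library, in CPM on a log axis after adding 0.02 CPM, with E16.5 hearts (4 points) left of E9.5 hearts (3 points) for every gene and a bar at each mean. Upper panels hold genes that rose, such as Ckm at 1919 CPM in E16.5 hearts and 3.45 CPM in E9.5 hearts, and lower panels genes that fell or did not pass. Open symbols mark E9.5 replicate 1.

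Nearly every gene of fat oxidation, the citric acid cycle and the respiratory chain rose. Before birth the heart draws much of its energy from glucose and lactate, and mitochondrial capacity for fatty acids is built up ahead of the switch to milk fat. Of 32 fatty acid oxidation genes 31 rose, against 32.1% rising among all genes tested, and their median log2 fold change was 1.26. Cpt1a, the enzyme isoform that commits fatty acids to import, measured 74.8, 89.4, 85.3 and 85.8 CPM in E16.5 hearts, against 9.36, 10.9 and 5.48 CPM in E9.5 hearts (log2 fold change 3.29 ± 0.18, adjusted p = 2.87e-11). Acadl, a dehydrogenase for long chains, measured 654, 704, 654 and 702 CPM in E16.5 hearts, against 101, 85.4 and 74.8 CPM in E9.5 hearts (log2 fold change 2.96 ± 0.10, adjusted p = 4.28e-15). Cd36, the fatty acid transporter of muscle and capillaries, rose by 2.93 ± 0.34 in log2 (adjusted p = 2.15e-06, and 2.19 against replicate 1 and 3.53 without E9.5 replicate 1), and Fabp3, the muscle fatty acid binding protein, by 2.85 ± 0.14 in log2 (adjusted p = 1.27e-12). Ucp3, an uncoupling protein, was the member that did not pass, at 0.240 CPM in E16.5 hearts and 0.150 CPM in E9.5 hearts. Of 29 genes of the citric acid cycle and pyruvate entry, 28 rose, with a median of 0.99. Pdk2, a kinase that restrains pyruvate dehydrogenase, led them (183, 172, 171 and 183 CPM in E16.5 hearts, against 18.4, 19.7 and 15.6 CPM in E9.5 hearts), followed by the pyruvate carriers Mpc1 and Mpc2, at log2 fold changes of 2.5 and 2.0. Pcx, pyruvate carboxylase, fell by 0.55 ± 0.09 in log2 (adjusted p = 1.40e-05).

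All 39 tested nuclear genes of the respiratory chain and ATP synthase rose, with a median log2 fold change of 1.08 and a range of 0.41 to 7.71. Cycs, cytochrome c, did not pass against replicate 1, at 0.05 (adjusted p = 0.730). The steepest were the muscle isoforms of cytochrome c oxidase, Cox8b, Cox6a2 and Cox7a1. Cox8b measured 120.1, 81.5, 80.2 and 122 CPM in E16.5 hearts, against 0.755, 0.389 and 0.266 CPM in E9.5 hearts (log2 fold change 7.71 ± 0.53, adjusted p = 7.23e-09, and 7.06 against replicate 1). Cox6a2 measured 375, 289.9, 297 and 382 CPM in E16.5 hearts, against 72.8, 68.8 and 61.9 CPM in E9.5 hearts (log2 fold change 2.31 ± 0.19, adjusted p = 1.12e-08). Of the 13 transcripts of the mitochondrial genome 11 rose and 2 did not pass, with a median of 1.31. The most abundant, mt-Co1, subunit I of cytochrome c oxidase, measured 22652, 19681, 22724 and 27856 CPM in E16.5 hearts, against 8097, 7937 and 7457 CPM in E9.5 hearts (log2 fold change 1.57 ± 0.13, adjusted p = 3.35e-09). mt-Co2, mt-Co3, mt-Atp6, mt-Atp8, mt-Nd3 and mt-Nd4l were counted at 3.81 to 24.7 CPM in E16.5 hearts, far below mt-Co1 of the same genome, so the counting of these 6 is uncertain. The mitochondrial ribosome did not follow: 10 of 22 tested genes rose, 4 fell and 8 did not pass (median 0.09). Of all genes tested 32.1% rose and 32.8% fell. The list ranged between Mrpl4 (log2 fold change 0.49 ± 0.09, adjusted p = 6.50e-05) and Mrpl19 (log2 fold change -0.55 ± 0.07, adjusted p = 2.40e-06).

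Among regulators of oxidative metabolism, 17 of 23 rose and 5 fell. Ppara, the nuclear receptor that drives fat oxidation genes, measured 18.5, 15.8, 14.9 and 19.1 CPM in E16.5 hearts, against 0.211, 0.682 and 0.664 CPM in E9.5 hearts (log2 fold change 5.04 ± 0.34, adjusted p = 1.84e-10, and 6.32 against replicate 1). Perm1, a muscle partner of that programme, measured 43.6, 45.5, 38.8 and 40.2 CPM in E16.5 hearts, against 2.20, 2.30 and 2.72 CPM in E9.5 hearts (log2 fold change 4.12 ± 0.14, adjusted p = 1.02e-14). Both were several-fold above E9.5 in each E16.5 library. Nr3c2, the mineralocorticoid receptor, rose by 3.08 ± 0.20 in log2 (adjusted p = 9.75e-11). Members that fell were Tfam, the factor that copies and packs the mitochondrial genome (log2 fold change -0.49 ± 0.08, adjusted p = 4.31e-05), Esrrg, an orphan receptor of oxidative muscle (log2 fold change -0.64 ± 0.10, adjusted p = 1.52e-05), and Mef2c, a muscle transcription factor (log2 fold change -0.63 ± 0.08, adjusted p = 8.94e-07), beside Nrf1 and Rxrg.

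Glucose genes changed in both directions. Of 23 glycolysis and transporter genes, 6 rose and 11 fell (median -0.06). Slc2a1, the embryonic glucose transporter GLUT1, measured 272, 214, 176 and 204 CPM in E16.5 hearts, against 1275, 1224 and 1354 CPM in E9.5 hearts (log2 fold change -2.57 ± 0.13, adjusted p = 1.56e-12). Slc2a3, the high-affinity transporter GLUT3, measured 23.1, 19, 21.5 and 21.5 CPM in E16.5 hearts, against 155, 161 and 224 CPM in E9.5 hearts (log2 fold change -3.08 ± 0.17, adjusted p = 3.73e-11). Slc16a3, the lactate exporter MCT4, fell by 1.60 ± 0.15 in log2 (adjusted p = 2.65e-08), and Eno1, the general enolase, by 1.38 ± 0.08 in log2 (adjusted p = 3.57e-11). In each case every E16.5 library was below every E9.5 library. In the other direction, Ldhb, the lactate dehydrogenase subunit of oxidative muscle, measured 853, 804, 749 and 859 CPM in E16.5 hearts, against 154, 124 and 100.4 CPM in E9.5 hearts (log2 fold change 2.70 ± 0.11, adjusted p = 1.76e-13). Pfkm, muscle phosphofructokinase, rose by 1.60 ± 0.06 in log2 (adjusted p = 8.86e-14), and Pgam2, muscle phosphoglycerate mutase, by 1.22 ± 0.10 in log2 (adjusted p = 3.63e-09). Gapdh, often used as a constant gene, measured 4354, 4131, 3754 and 4398 CPM in E16.5 hearts, against 3916, 3975 and 4234 CPM in E9.5 hearts and did not pass (log2 fold change 0.04 ± 0.08, adjusted p = 0.658). Of 16 glycogen and phosphagen genes 11 rose and 4 fell. Beside Ckm, Ckmt2, the mitochondrial creatine kinase of muscle, measured 48.9, 40.9, 46.6 and 47.7 CPM in E16.5 hearts, against 2.36, 1.91 and 1.83 CPM in E9.5 hearts (log2 fold change 4.50 ± 0.13, adjusted p = 1.82e-15). Gyg, glycogenin, the primer of glycogen, fell by 1.06 ± 0.07 in log2 (adjusted p = 1.64e-10).

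Isoform pairs, 1 member known from embryonic or general tissue and the other from mature muscle or later stages, were compared by the late member's share of both, per kilobase of exon, in each library. Of 29 pairs the late member rose in 25 and the early member fell in 15, and both held in 13, while both members rose in 9. The late share was higher in every E16.5 library than in every E9.5 library for 25 pairs and lower for 4. It exceeded 50% for 17 pairs in E16.5 hearts and 12 in E9.5 hearts. Exon length was the union of all annotated exons of a gene, which can be longer than the messenger made. Which member is the larger part therefore depends on the annotation, while the direction of a shift between stages does not. The largest shifts were of Ckm with Ckb, at 89.9 ± 0.962% in E16.5 hearts and 0.980 ± 0.630% in E9.5 hearts, and of Hbb-bt with Hbb-y, at 96.1 ± 2.43% in E16.5 hearts and 0.347 ± 0.163% in E9.5 hearts. For lactate dehydrogenase, Ldhb made 48.8 ± 1.31% in E16.5 hearts and 8.02 ± 1.53% in E9.5 hearts of the sum with Ldha. For the ventricular regulatory light chain, Myl2 made 48.1 ± 5.97% in E16.5 hearts and 13.2 ± 2.78% in E9.5 hearts of the sum with Myl7, and for the essential light chain Myl3 made 79.2 ± 2.22% in E16.5 hearts and 49.8 ± 1.88% in E9.5 hearts of the sum with Myl4. Tnni3 made 44.9 ± 0.564% in E16.5 hearts and 29.5 ± 0.642% in E9.5 hearts of the sum with Tnni1, the slow skeletal troponin I of the embryonic heart. By this measure, which rests on the annotated exon lengths, the adult subunit was the smaller part at both stages. Lmna, the lamin of differentiated nuclei, made 23.6 ± 2.32% in E16.5 hearts and 4.11 ± 0.814% in E9.5 hearts of the sum with Lmnb1. In 4 pairs the late share was lower. Of their late members, Myh6 (alpha myosin, above) and Hk2 fell, at log2 fold changes of -0.99 and -0.79. Pln and Cpt1b rose, at 3.62 and 1.0, but less than Sln and Cpt1a, taken as early, at 8.64 and 3.29. Sln stood at 0.451 RPKM in E9.5 hearts, so it was not an abundant early member. Pln made 76.0 ± 3.97% in E16.5 hearts and 99.0 ± 0.382% in E9.5 hearts of the sum with Sln. Cpt1b made 67.9 ± 0.717% in E16.5 hearts and 91.0 ± 3.34% in E9.5 hearts of the sum with Cpt1a, and Hk2 with Hk1 stood at 23.9 ± 3.31% in E16.5 hearts and 35.0 ± 1.98% in E9.5 hearts. The log2 fold change of Hk2 was -0.79, and -0.60 (adjusted p = 0.188) against replicate 1.

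**Figure D3:**
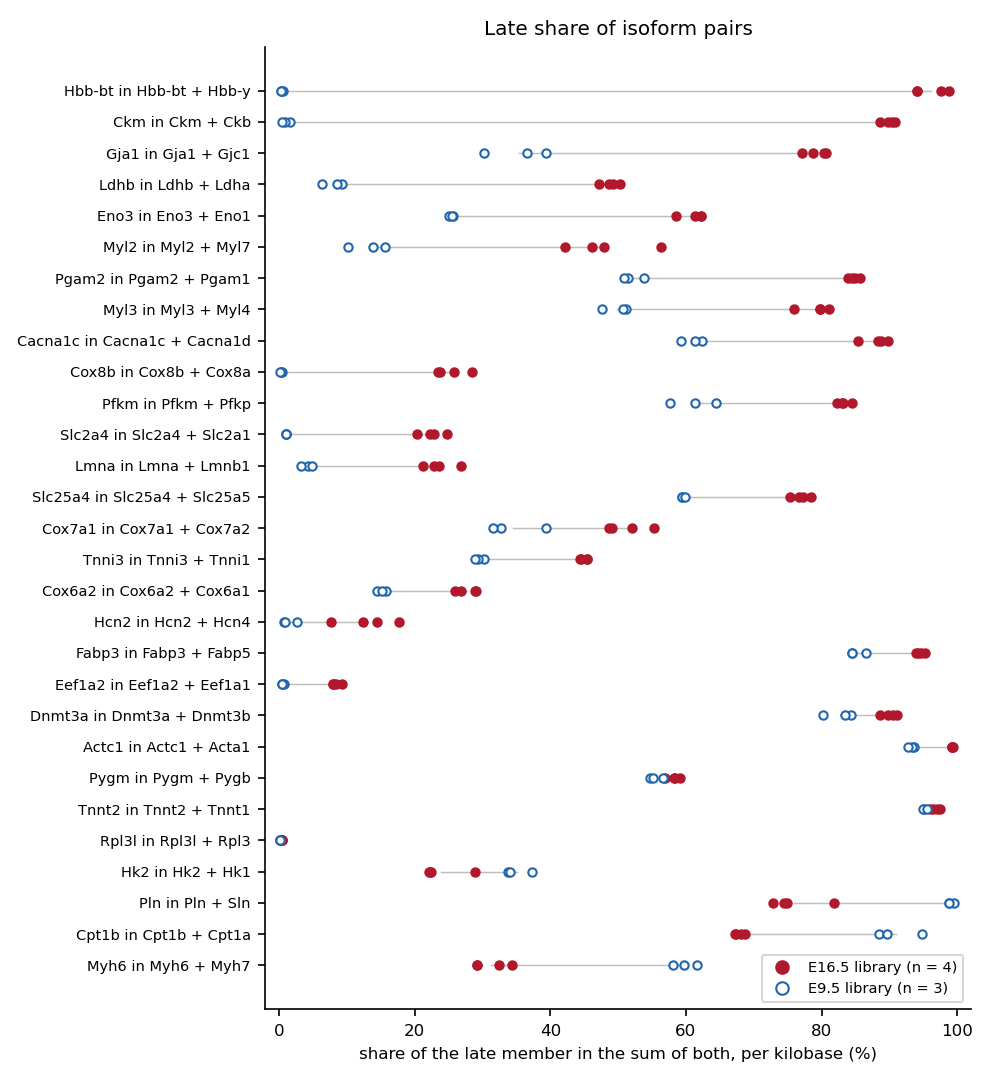
Share of the late member in the sum of both members of each of the 29 isoform pairs, per kilobase of exon, in percent. Filled points are the 4 E16.5 libraries and open points the 3 E9.5 libraries, and pairs are ordered by the difference of the means. The points of the 2 stages do not overlap in any pair, and the late share of Ckm with Ckb stands at 89.9% in E16.5 hearts and 0.980% in E9.5 hearts.

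Genes of DNA replication and cell division fell together by modest amounts. Replication genes load and fire the copying machinery in S phase, and mitotic genes build the spindle and split the cell, and both sets are transcribed mainly in cycling cells. Of 32 replication genes 31 fell and 1 rose, against 32.8% falling among all genes tested, with a median log2 fold change of -0.81. Of 34 mitosis genes 32 fell, with a median of -0.77. Mcm10, which starts replication forks, measured 12.9, 13.8, 15.5 and 14.6 CPM in E16.5 hearts, against 43.3, 50.5 and 51.4 CPM in E9.5 hearts (log2 fold change -1.77 ± 0.09, adjusted p = 1.47e-12). Cdc6, which loads the replicative helicase, measured 23.4, 24.4, 25.4 and 21.9 CPM in E16.5 hearts, against 65.0, 65.6 and 65.3 CPM in E9.5 hearts (log2 fold change -1.46 ± 0.09, adjusted p = 5.91e-11). Ccnb1, cyclin B1, the partner of Cdk1 at entry into mitosis, measured 98.4, 119, 105 and 110.2 CPM in E16.5 hearts, against 234, 256 and 259 CPM in E9.5 hearts (log2 fold change -1.21 ± 0.08, adjusted p = 4.61e-11). The stages did not overlap for any of these 3, and all 3 were well above the counting floor in E16.5 hearts. Smc2, a condensin subunit, fell by 1.24 ± 0.11 in log2 (adjusted p = 3.99e-09), and Cenpe, a kinetochore motor, by 1.16 ± 0.12 in log2 (adjusted p = 9.87e-08). The replication gene that rose was Tk1, thymidine kinase (log2 fold change 0.43 ± 0.08, adjusted p = 5.64e-05), and the most abundant mitotic gene that did not pass was Cdc20 (135 ± 11.5 CPM in E16.5 hearts and 153 ± 10.7 CPM in E9.5 hearts).

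The promoters of these genes are printed because they carry the short sequences by which cell cycle genes are best known, the CCAAT box, the CHR element of mitotic genes (TTTGAA or TTCGAA) and E2F sites (searched as TTCCCGC or TTGGCGC and also TTCGCGC or TTGCCGC, which can overlap a CCAAT box), all on both strands. In the RefSeq promoter windows of 300 bases on GRCm38.p6, 83.3% of 30 windows of the mitosis list held a CHR and 83.3% a CCAAT box, against 13.9% and 37.2% of the 15217 windows of tested protein-coding genes. E2F sites were in 67.6% of 34 windows of the replication list, against 15.3%. Of the genes listed, 28 of 34 and 27 of 32 had a window in the table. Not every window holds such matches: that of Cdc6 holds an E2F match but no CCAAT box or CHR, and that of Tyms, also searched, holds none of these. Capitals mark these matches in the windows of Cdk1, the mitotic kinase (log2 fold change -0.67, chr10:69352863-69353162, minus strand), Top2a, the topoisomerase of condensing chromosomes (-1.09, chr11:99024140-99024439, minus strand), and Mcm5, a helicase subunit (-1.13, chr8:75109259-75109558, plus strand).
Cdk1: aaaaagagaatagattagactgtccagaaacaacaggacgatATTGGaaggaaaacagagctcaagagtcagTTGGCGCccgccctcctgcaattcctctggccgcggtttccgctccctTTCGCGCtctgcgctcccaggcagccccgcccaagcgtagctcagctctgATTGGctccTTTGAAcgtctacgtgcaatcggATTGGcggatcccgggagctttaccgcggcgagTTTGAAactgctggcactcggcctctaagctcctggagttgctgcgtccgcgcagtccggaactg
Top2a: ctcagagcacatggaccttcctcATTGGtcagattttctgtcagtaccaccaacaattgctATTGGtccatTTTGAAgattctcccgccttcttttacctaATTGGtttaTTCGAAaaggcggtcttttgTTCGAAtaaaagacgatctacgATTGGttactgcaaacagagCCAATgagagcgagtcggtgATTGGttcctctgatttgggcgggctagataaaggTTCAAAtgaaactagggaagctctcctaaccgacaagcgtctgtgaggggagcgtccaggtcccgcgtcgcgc
Mcm5: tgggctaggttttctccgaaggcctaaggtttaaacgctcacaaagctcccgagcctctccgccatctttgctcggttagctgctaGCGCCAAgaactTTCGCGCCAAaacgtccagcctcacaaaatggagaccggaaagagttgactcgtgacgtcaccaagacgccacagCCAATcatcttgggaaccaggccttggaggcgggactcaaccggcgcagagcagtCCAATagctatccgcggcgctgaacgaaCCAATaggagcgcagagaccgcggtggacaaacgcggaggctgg
The Top2a window holds several CCAAT and CHR matches, and the Mcm5 window E2F and CCAAT matches but no CHR, and a match is a description of these letters, not a site shown to be bound.

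Most regulators of entry into the cycle fell as well, and most inhibitors rose, though not their summed level. Of 17 G1 cyclin, kinase, E2F and Myc genes, 10 fell and 2 rose. Mybl2, a transcription factor of dividing cells, measured 25.3, 22.8, 25.8 and 25 CPM in E16.5 hearts, against 72.2, 91.1 and 111 CPM in E9.5 hearts (log2 fold change -1.89 ± 0.11, adjusted p = 8.30e-12). Ccne1, cyclin E1, fell by 1.59 ± 0.07 in log2 (adjusted p = 3.85e-13), and the members that rose were E2f1 (log2 fold change 0.84 ± 0.14, adjusted p = 3.27e-05) and E2f2 (log2 fold change 0.63 ± 0.18, adjusted p = 0.00636, and 0.52 with adjusted p = 0.164 against replicate 1). Ccnd3, cyclin D3, did not pass (log2 fold change 0.05 ± 0.08, adjusted p = 0.552). Of 16 inhibitors of the cycle 13 rose and 2 fell, with a median of 0.99. Their summed level was lower, at 1337 to 1423 CPM in E16.5 libraries and 1876 to 2097 CPM in E9.5 libraries. Cdkn2c, the CDK4 and CDK6 inhibitor p18, measured 61.1, 61.6, 60.4 and 74.7 CPM in E16.5 hearts, against 3.77, 4.32 and 4.25 CPM in E9.5 hearts (log2 fold change 3.97 ± 0.12, adjusted p = 3.21e-15). Cdkn1a, the inhibitor p21, measured 67.3, 53.1, 55.2 and 60.8 CPM in E16.5 hearts, against 22.4, 17.5 and 15.9 CPM in E9.5 hearts (log2 fold change 1.67 ± 0.12, adjusted p = 5.65e-10). Cdkn1c, the imprinted inhibitor p57 and the most abundant member, ran the other way at 359, 366, 349.9 and 379.7 CPM in E16.5 hearts, against 1529, 1448 and 1354 CPM in E9.5 hearts (log2 fold change -1.99 ± 0.07, adjusted p = 1.22e-14). Every E16.5 library was below every E9.5 library for Cdkn1c and above for Cdkn2c and Cdkn1a.

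All 24 tested genes of ribosome biogenesis fell, the nucleolar proteins that process and assemble ribosomal RNA, with a median log2 fold change of -1.23 and 19 of them by at least 2-fold. Npm1, nucleophosmin, the most abundant of them, measured 523, 460.4, 515 and 498 CPM in E16.5 hearts, against 1906, 1504 and 1541 CPM in E9.5 hearts (log2 fold change -1.73 ± 0.09, adjusted p = 1.83e-12). Rrp12, an export factor of ribosomal subunits, measured 16, 20.9, 17.9 and 17.3 CPM in E16.5 hearts, against 55.5, 60.1 and 65.9 CPM in E9.5 hearts (log2 fold change -1.75 ± 0.10, adjusted p = 1.17e-11). Rrp1b fell by 1.72 ± 0.10 in log2 (adjusted p = 6.97e-12). The ribosomal proteins themselves changed less: 13 of 30 fell and 17 did not pass, with a median of -0.24. The largest fall was Rpl14 (log2 fold change -0.64 ± 0.11, adjusted p = 4.66e-05). Counts of ribosomal proteins may be split with pseudogene copies.

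LIN28 and the oncofetal genes linked to it fell steeply. LIN28 proteins bind precursors of let-7 and stop their maturation, and mature let-7 represses messengers that carry its seed match, among them Lin28 itself, Hmga2, Trim71 and Igf2bp1. Of 18 tested genes 17 fell, 16 of them at least 2-fold, and the median log2 fold change was -2.0. Trim71, an RNA-binding ubiquitin ligase, measured 0.128, 0.0893, 0.370 and 0.326 CPM in E16.5 hearts, against 52.4, 48.0 and 65.3 CPM in E9.5 hearts (log2 fold change -7.91 ± 0.30, adjusted p = 3.70e-13). Hmga2, a chromatin protein, measured 12.7, 12.1, 12.2 and 15.6 CPM in E16.5 hearts, against 389, 383 and 415 CPM in E9.5 hearts (log2 fold change -4.92 ± 0.10, adjusted p = 5.40e-17). Igf2bp1, which stabilises messengers, measured 43.1, 42.2, 40.2 and 38.6 CPM in E16.5 hearts, against 251, 237 and 258 CPM in E9.5 hearts (log2 fold change -2.60 ± 0.10, adjusted p = 8.44e-14). No E16.5 library of these 3 reached the lowest E9.5 library. Tet1, a DNA demethylase, was the member that did not pass (38.6 ± 1.83 CPM in E16.5 hearts and 34.9 ± 7.76 CPM in E9.5 hearts). Its log2 fold change was 0.14, 0.53 (adjusted p = 0.00475) against replicate 1 and 0.34 (adjusted p = 0.0172) with the kind of library as a term.

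The mature let-7 sequences are shown because their shared seed (bases 2 to 8, in capitals) defines the match sought in these messengers, from RefSeq on GRCm38.p6 (the microRNAs themselves were not measured).
let-7a-5p (chr13:48538239-48538260, minus strand): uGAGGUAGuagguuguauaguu
let-7g-5p (chr9:106178846-106178867, plus strand): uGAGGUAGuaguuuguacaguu
let-7i-5p (chr10:122985698-122985719, minus strand): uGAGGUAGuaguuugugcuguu
The match to this seed is CTACCTC, searched on the messenger strand of the longest annotated 3′ UTR of each gene. It was present in 12 of 18 listed genes, against 10.4% of the 15144 tested genes with a 3′ UTR of at least 50 bases, and let-7 targets were among the reasons for which genes were put on the list. The same search for the matches to the seeds of miR-29a (TGGTGCT) and miR-17 (GCACTTT) found them in 9 and 8 listed genes, against 15.4 and 14.1% of all. The match to the seed of miR-133b (GGACCAA) was in 1 of 18 listed genes, against 8.93% of all. The median 3′ UTR had 1952 bases on the list and 1173 bases over all genes. The share on the list exceeded that over all genes for let-7, miR-29a and miR-17, and not for miR-133b. Among all genes the median log2 fold change was 0.04 with no let-7 match and -0.10 with 1. It was -0.18 with 2 and -0.40 with 3 or more (28 genes). Median UTR lengths were 1068, 2160, 3475 and 4460 bases, so that number of matches and length go together. For miR-29a the same medians of the log2 fold change were 0.03, -0.007, 0.01 and -0.03, at lengths of 1017 to 4682 bases. For miR-17 they were 0.02, 0.04, 0.10 and -0.04 (1017 to 6924 bases). For miR-133b they were 0.02, 0.03, 0.32 and 0.04 (1082 to 5784 bases). The part of UTR length in these medians was not tested. Lin28b, Trim71, Hmga2 and Igf2bp1 held 4 let-7 matches each, the first of each gene being shown with the match in capitals.
Lin28b (chr10:45381022-45381044, minus strand): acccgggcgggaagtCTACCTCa
Trim71 (chr9:114512472-114512494, minus strand): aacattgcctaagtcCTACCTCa
Hmga2 (chr10:120364224-120364246, minus strand): gccgacattcaatttCTACCTCa
Igf2bp1 (chr11:95961778-95961800, minus strand): gctgtgcgaagtaaaCTACCTCa
Of genes at least 4-fold lower in E16.5 hearts 14.4% held a let-7 match, and of those at least 4-fold higher 9.35%.

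Imprinted and growth factor genes were split, with 16 of 26 lower and 7 higher. Peg10, a placental gene derived from a retrotransposon, measured 22.7, 25.2, 32.5 and 27.3 CPM in E16.5 hearts, against 153, 236 and 177 CPM in E9.5 hearts (log2 fold change -2.81 ± 0.15, adjusted p = 1.04e-11). Peg3, a zinc finger protein, fell by 1.55 ± 0.16 in log2 (adjusted p = 1.05e-07). Igf2, the fetal growth factor, measured 4568, 4597, 4813 and 4985 CPM in E16.5 hearts, against 3985, 4518 and 4364 CPM in E9.5 hearts, with every E16.5 library above every E9.5 library, but did not pass (log2 fold change 0.14 ± 0.08, adjusted p = 0.121, and 0.24 with adjusted p = 0.0107 with the kind of library as a term). It passed with DESeq2, at 0.17 (adjusted p = 0.0494), and among genes of at least 10 CPM in 3 libraries, at 0.21 (adjusted p = 0.0173). Its neighbour H19, a non-coding RNA, rose by 0.31 ± 0.08 in log2 (adjusted p = 0.00283, and 0.30 with adjusted p = 0.0516 against replicate 1). Igfbp7, a secreted binding protein of vessels, rose by 3.08 ± 0.19 in log2 (adjusted p = 8.56e-11) and Dlk1, a Notch-like surface protein, by 1.44 ± 0.20 in log2 (adjusted p = 7.93e-06, and 2.09 against replicate 1). Among 24 chromatin and nuclear envelope genes 16 fell and 4 rose. Lmna measured 136, 136, 118 and 115 CPM in E16.5 hearts, against 29.6, 34.3 and 22.0 CPM in E9.5 hearts (log2 fold change 2.14 ± 0.13, adjusted p = 2.73e-11). Dnmt3b, a DNA methyltransferase of early embryos, fell by 1.57 ± 0.12 in log2 (adjusted p = 1.18e-09).

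Enzymes of the mevalonate pathway and of cholesterol synthesis fell. The pathway turns acetyl-CoA into farnesyl diphosphate, from which cells make cholesterol and the lipid anchors of small GTPases. Of 9 mevalonate enzymes 7 fell (median -1.15). Fdps, which makes farnesyl diphosphate, measured 25.9, 29.2, 23.0 and 29.2 CPM in E16.5 hearts, against 68.9, 58.6 and 53.5 CPM in E9.5 hearts (log2 fold change -1.17 ± 0.12, adjusted p = 4.57e-08). The stages did not overlap. In the order of the route, Acat2, which joins the first acetyl groups, fell by 1.33 ± 0.08 in log2 (adjusted p = 3.86e-11). Hmgcs1, an early synthase of the route, fell by 0.53 ± 0.08 in log2 (adjusted p = 1.86e-05), and Mvk, mevalonate kinase, by 0.57 ± 0.11 in log2 (adjusted p = 1.61e-04). Mvd, the decarboxylase, fell by 1.21 ± 0.09 in log2 (adjusted p = 1.02e-09), and Idi1, the isomerase, by 1.15 ± 0.09 in log2 (adjusted p = 8.94e-10). Pmvk, the second kinase, and Ggps1, which makes the longer geranylgeranyl group, did not pass (log2 fold change -0.15 ± 0.11, adjusted p = 0.270, and -0.35 with adjusted p = 0.00237 with the kind of library as a term, and log2 fold change -0.05 ± 0.09, adjusted p = 0.662). Of 12 enzymes after farnesyl diphosphate 11 fell, with Fdft1, squalene synthase, at -1.25 on the log2 scale. The prenylation list, which attaches farnesyl and geranylgeranyl groups to proteins, was mixed at 3 higher and 5 lower of 13 (median -0.19, range -0.52 to 0.46). Genes of sterol uptake and export were mixed too, 7 higher and 7 lower of 16. Abcg1, a cholesterol exporter, rose by 1.38 ± 0.23 in log2 (adjusted p = 5.77e-05) and Apoe, the lipoprotein ligand, by 1.20 ± 0.11 in log2 (adjusted p = 1.89e-08). In contrast Soat1, which stores cholesterol as ester, fell by 1.15 ± 0.11 in log2 (adjusted p = 1.55e-08).

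**Figure D4:**
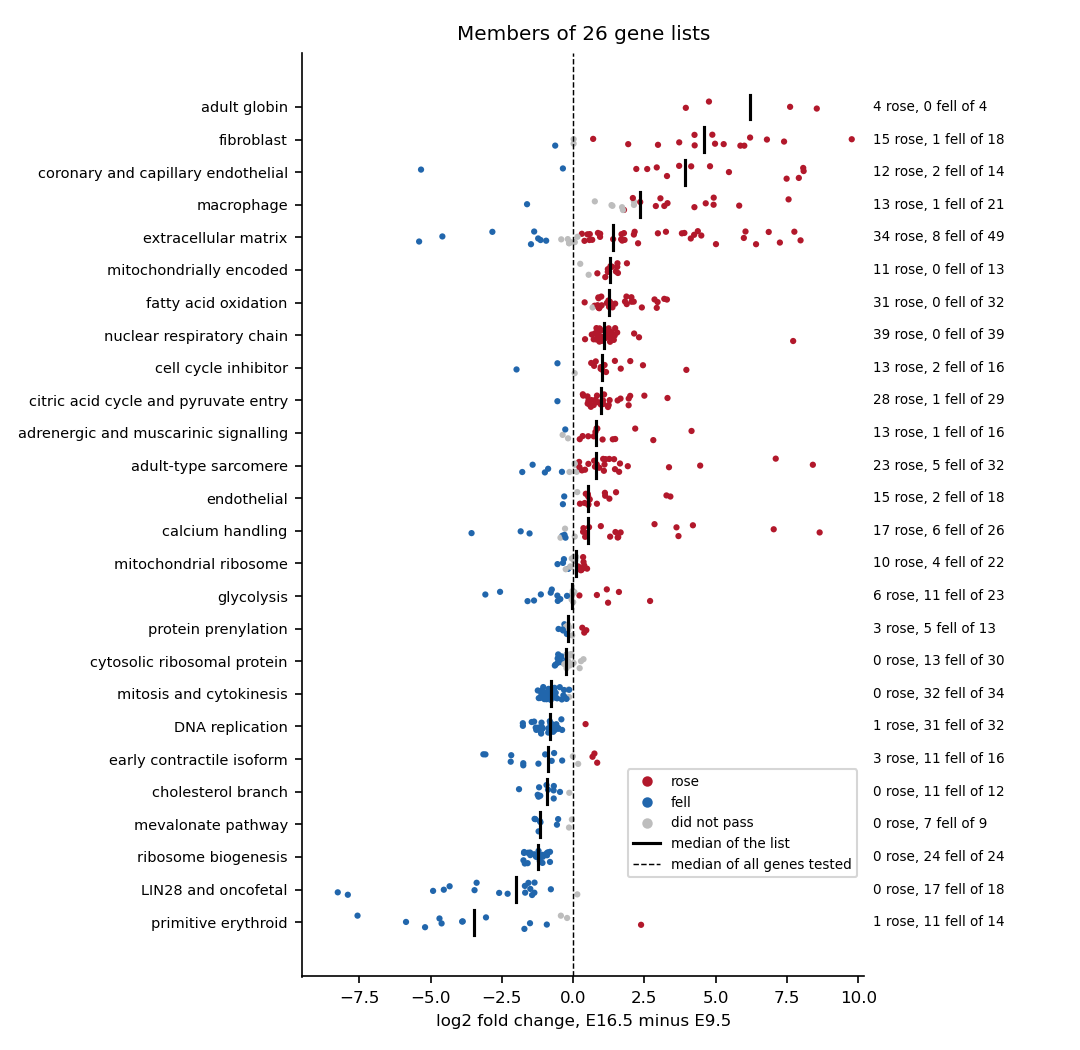
Log2 fold change, E16.5 minus E9.5, of each tested member (points) and the median (bar) of 26 gene lists, with the number of members that rose and fell beside each list. The dashed line is the median over all 18885 genes tested, -0.005, and the fibroblast list has the highest median shown after the adult globins, at 4.57.

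Of 26 core cardiac factors 8 rose and 13 fell (median -0.30), of which 1 rose and 4 fell by at least 2-fold. Gata5, of endocardium and outflow tract, measured 9.86, 9.88, 13.6 and 12.7 CPM in E16.5 hearts, against 103, 146 and 186 CPM in E9.5 hearts (log2 fold change -3.65 ± 0.17, adjusted p = 2.14e-12). Hand1, of the outer curvature and left ventricle, measured 7.11, 9.40, 8.45 and 8.40 CPM in E16.5 hearts, against 65.6, 91.0 and 87.1 CPM in E9.5 hearts (log2 fold change -3.28 ± 0.13, adjusted p = 1.37e-13). Tbx3, of the conduction system, fell by 1.52 ± 0.13 in log2 (adjusted p = 4.59e-09). Hopx, a homeodomain-only protein of maturing muscle, rose by 1.39 ± 0.10 in log2 (adjusted p = 2.57e-10), and Tbx20 was the most abundant factor that did not pass (373 ± 26.4 CPM in E16.5 hearts and 428 ± 43.6 CPM in E9.5 hearts). The log2 fold change of Tbx20 was -0.20, and it passed with -0.24 (adjusted p = 0.0305) with the kind of library as a term, -0.28 (adjusted p = 0.0147) without E9.5 replicate 2 and -0.23 (adjusted p = 0.0325) without E16.5 replicate 3. Of 23 second heart field and pharyngeal arch genes 14 fell and 6 rose. Isl1, the progenitor factor, measured 1.70, 0.833, 2.22 and 1.43 CPM in E16.5 hearts, against 9.66, 10.1 and 12.9 CPM in E9.5 hearts (log2 fold change -2.82 ± 0.24, adjusted p = 4.12e-09). Fgf10, a growth factor of the same field, measured 0.608, 0.417, 0.524 and 0.912 CPM in E16.5 hearts, against 8.48, 9.77 and 14.4 CPM in E9.5 hearts (log2 fold change -4.14 ± 0.24, adjusted p = 1.82e-11). Fgf8, another, fell by 4.04 ± 0.42 in log2 (adjusted p = 7.05e-08). These 3 genes were low in each E16.5 library and at least several-fold higher in each E9.5 library. Of 15 tested Hox genes 7 fell and 3 rose (median -1.07, and -0.44 against replicate 1), with Hoxb2 as the only one of at least 5 CPM in a stage (log2 fold change -1.42 ± 0.21, adjusted p = 5.65e-06).

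Counts in the signalling lists below stand beside 32.1% higher and 32.8% lower of all genes tested. Of 8 tested Nodal and left-right genes 6 fell, including Foxh1 and Tdgf1 above. In the retinoic acid list 7 of 15 rose and 4 fell. Aldh1a2, the synthesising enzyme, measured 31, 28.5, 36.8 and 36.9 CPM in E16.5 hearts, against 4.53, 4.19 and 2.42 CPM in E9.5 hearts (log2 fold change 3.16 ± 0.20, adjusted p = 1.41e-10). Crabp2, a binding protein that carries retinoic acid to its receptors, fell by 4.92 ± 0.32 in log2 (adjusted p = 9.20e-11). In the Wnt list 15 of 33 rose and 14 fell. Wnt2, a ligand of the early inflow and second heart field, measured 3.07, 1.79, 2.65 and 3.29 CPM in E16.5 hearts, against 55.0, 71.0 and 95 CPM in E9.5 hearts (log2 fold change -4.77 ± 0.28, adjusted p = 4.43e-10). Lef1, a nuclear effector of the pathway, fell by 3.33 ± 0.21 in log2 (adjusted p = 1.05e-10). The secreted inhibitors Wif1 and Sfrp2 rose by 7.98 ± 0.37 in log2 (adjusted p = 6.64e-13, and 7.25 against replicate 1 and 8.63 without E9.5 replicate 1) and 4.99 ± 0.33 in log2 (adjusted p = 2.33e-09). In the BMP and TGF-beta list 13 of 30 rose and 15 fell. Bmp2, the ligand of the atrioventricular canal, measured 14.8, 10.9, 15.7 and 13.6 CPM in E16.5 hearts, against 64.1, 80.6 and 86.3 CPM in E9.5 hearts (log2 fold change -2.48 ± 0.12, adjusted p = 9.30e-13). Nog, the BMP antagonist noggin, fell by 3.42 ± 0.16 in log2 (adjusted p = 6.44e-13). Ltbp3, which stores TGF-beta in the matrix, rose by 4.44 ± 0.15 in log2 (adjusted p = 1.13e-14). The BMP ligand and the antagonist were thus both lower in E16.5 hearts.

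In the Notch list 11 of 16 rose and 2 fell. Heyl, a Notch target of vascular smooth muscle, measured 37.9, 36.9, 38 and 35.7 CPM in E16.5 hearts, against 2.87, 2.21 and 2.16 CPM in E9.5 hearts (log2 fold change 3.94 ± 0.10, adjusted p = 5.00e-16). Jag1, a ligand, fell by 1.35 ± 0.09 in log2 (adjusted p = 1.84e-10). Notch1, the receptor of endocardium, did not pass (log2 fold change -0.07 ± 0.18, adjusted p = 0.734, and 0.52 with adjusted p = 0.00654 against replicate 1). In the FGF and neuregulin list 11 of 22 rose and 9 fell. Fgf12, an intracellular partner of sodium channels, rose by 4.99 ± 0.28 in log2 (adjusted p = 3.78e-11, and 4.15 against replicate 1 and 5.78 without E9.5 replicate 1), and Fgf1 by 3.26 ± 0.16 in log2 (adjusted p = 1.53e-12). Nrg1, the endocardial ligand of trabecular growth, fell by 1.96 ± 0.15 in log2 (adjusted p = 6.34e-10). In the Hedgehog list 4 of 12 rose and 2 fell, with Gas1, a co-receptor, at 1.92 and Ptch1, the receptor, at -0.40. Ptch1 stood at -0.06 (adjusted p = 0.715) against replicate 1, where the median of the Hedgehog list was 0.64, against 0.07 over all 3 E9.5 libraries. Of 18 natriuretic and other secreted factors and their receptors 12 rose and 2 fell. Corin, the protease that activates atrial natriuretic peptide, measured 133, 150.2, 134 and 137 CPM in E16.5 hearts, against 30.9, 36 and 28.1 CPM in E9.5 hearts (log2 fold change 2.13 ± 0.12, adjusted p = 1.08e-11). Apln, the vascular peptide apelin, measured 27.9, 25.1, 28.4 and 28.0 CPM in E16.5 hearts, against 1.60, 1.72 and 1.33 CPM in E9.5 hearts (log2 fold change 4.14 ± 0.15, adjusted p = 2.87e-14). Its receptor Aplnr rose by 2.60 ± 0.16 in log2 (adjusted p = 6.33e-11). Angpt1, angiopoietin 1, fell by 0.88 ± 0.13 in log2 (adjusted p = 8.86e-06).

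Counts in the cell type and organ lists from here on also stand beside 32.1% higher and 32.8% lower of all genes tested. The fibroblast list had the highest median of the cell type lists after adult globins. Of 18 fibroblast genes 15 rose and 1 fell, with a median log2 fold change of 4.57, and their summed level was 6004 to 7382 CPM in E16.5 libraries and 1063 to 1123 CPM in E9.5 libraries. Lum, lumican, a collagen-binding proteoglycan, measured 77.5, 68.5, 92.9 and 71.4 CPM in E16.5 hearts, against 0.423, 0.584 and 0.365 CPM in E9.5 hearts (log2 fold change 7.40 ± 0.28, adjusted p = 3.80e-13). Ogn, osteoglycin, another, rose by 6.79 ± 0.25 in log2 (adjusted p = 5.23e-14). Pdgfra, the receptor that marks fibroblasts and their precursors, measured 57.2, 60.8, 68.6 and 48.1 CPM in E16.5 hearts, against 43.3, 71.7 and 59.3 CPM in E9.5 hearts and did not pass (log2 fold change 0.01 ± 0.16, adjusted p = 0.944). The collagens Col1a1 and Col1a2 are defining matrix products, and Col1a1 measured 1388, 1472, 1528 and 1281 CPM in E16.5 hearts, against 22.0, 48.7 and 38.9 CPM in E9.5 hearts (log2 fold change 5.28 ± 0.26, adjusted p = 2.82e-11, and 6.01 against replicate 1). Of 49 matrix genes 34 rose and 8 fell (median 1.40). Eln, elastin of vessel walls, measured 2210.2, 1703, 1451 and 989.7 CPM in E16.5 hearts, against 7.79, 6.20 and 4.91 CPM in E9.5 hearts (log2 fold change 7.97 ± 0.39, adjusted p = 8.17e-11). Hapln1, a hyaluronan link protein, measured 9.93, 7.59, 14.7 and 10.8 CPM in E16.5 hearts, against 494, 451 and 423 CPM in E9.5 hearts (log2 fold change -5.41 ± 0.20, adjusted p = 4.46e-13). Has2, hyaluronan synthase, measured 3.62, 3.63, 3.86 and 2.51 CPM in E16.5 hearts, against 71.4, 76.0 and 99.1 CPM in E9.5 hearts (log2 fold change -4.59 ± 0.20, adjusted p = 2.32e-12). Vcan, the proteoglycan versican, measured 131, 159, 134 and 109 CPM in E16.5 hearts, against 728, 1007 and 1120.1 CPM in E9.5 hearts (log2 fold change -2.84 ± 0.18, adjusted p = 3.49e-10). Lum, Col1a1 and Eln on one side and these 3 genes on the other thus ran in opposite directions, each without overlap between stages. Hspg2, perlecan of basement membranes, did not pass (log2 fold change -0.42 ± 0.23, adjusted p = 0.125, and 0.29 against replicate 1, -0.67 with adjusted p = 0.00980 without E9.5 replicate 1 and -0.57 with adjusted p = 0.0490 without E16.5 replicate 2).

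Genes of coronary vessels and capillaries had a higher median than general endothelial genes. Of 14 coronary and capillary genes 12 rose and 2 fell, with a median of 3.93, while of 18 general endothelial genes 15 rose and 2 fell, with a median of 0.53. Gpihbp1, which holds lipoprotein lipase at the capillary wall, measured 27.6, 23.5, 24.7 and 31.8 CPM in E16.5 hearts, against 0.0906, 0.0649 and 0.133 CPM in E9.5 hearts (log2 fold change 8.08 ± 0.30, adjusted p = 3.20e-14). Cldn5, a tight junction protein, measured 35.8, 33, 39.6 and 48.1 CPM in E16.5 hearts, against 3.99, 3.86 and 3.19 CPM in E9.5 hearts (log2 fold change 3.41 ± 0.23, adjusted p = 3.81e-10). Kdr, the VEGF receptor shared by endocardium and vessels, measured 134, 142, 135 and 111 CPM in E16.5 hearts, against 135, 172 and 197 CPM in E9.5 hearts. It fell by 0.36 ± 0.12 in log2 (adjusted p = 0.0150, and -0.04 with adjusted p = 0.794 against replicate 1, -0.14 with adjusted p = 0.222 with the kind of library as a term, -0.23 with adjusted p = 0.132 without E9.5 replicate 3 and -0.29 with adjusted p = 0.0523 without E16.5 replicate 4), but the lowest E9.5 library, replicate 1, lay within the E16.5 range. Car4, a membrane carbonic anhydrase put on the capillary list, fell by 5.34 ± 0.28 in log2 (adjusted p = 7.73e-12). Of 16 pericyte and smooth muscle genes 9 rose and 4 fell: Rgs5 and Pdgfrb, which mark pericytes, rose by 2.72 ± 0.19 in log2 (adjusted p = 1.20e-09) and 2.24 ± 0.10 in log2 (adjusted p = 2.55e-13), and the members that fell most were Tagln, Acta2 and Cnn1, which early heart muscle also makes. Lyve1, of lymphatic vessels and resident macrophages, rose by 2.5 ± 0.18 in log2 (adjusted p = 3.68e-10).

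In the epicardial list 8 of 16 rose and 3 fell. Muc16, a surface mucin, rose by 6.38 ± 0.49 in log2 (adjusted p = 1.05e-09) and Krt7, a keratin, by 3.70 ± 0.31 in log2 (adjusted p = 2.06e-08). Krt8 and Krt18, keratins also found in early epithelia and muscle, fell by 3.21 ± 0.19 in log2 (adjusted p = 2.71e-10) and 2.01 ± 0.15 in log2 (adjusted p = 1.48e-09). Tbx18 was the most abundant member that did not pass (34.5 ± 1.74 CPM in E16.5 hearts and 39.2 ± 9.80 CPM in E9.5 hearts). Its log2 fold change was -0.18, and it passed with -0.37 (adjusted p = 0.00897) against replicate 1, -0.30 (adjusted p = 0.0391) with the kind of library as a term and -0.38 (adjusted p = 0.00131) without E9.5 replicate 3. In the endocardial and valve list 9 of 18 fell and 7 rose. Msx2, a cushion factor downstream of BMP, measured 1.70, 2.08, 1.60 and 2.02 CPM in E16.5 hearts, against 26, 25.6 and 29.4 CPM in E9.5 hearts (log2 fold change -3.86 ± 0.12, adjusted p = 4.17e-15). Scx, of fibrous valve tissue, rose by 2.40 ± 0.25 in log2 (adjusted p = 6.88e-08). In the Schwann cell list 7 of 13 rose (median 1.41, and 0.39 against replicate 1). Their sum was 82.3 to 88.0 CPM in E16.5 libraries, against 62.5, 33.1 and 24.2 CPM in E9.5 replicates 1 to 3. In the neuronal list 7 of 18 rose and 4 fell (median 0.96, and 0.37 against replicate 1), beside 32.1% higher and 32.8% lower of all genes. Its sum overlapped between the stages, at 367 to 437 CPM in E16.5 libraries and 339.5 to 408 CPM in E9.5 libraries. Fabp7, of glia, rose by 3.35 ± 1.10 in log2 (adjusted p = 0.0159, and 1.84 against replicate 1, 7.57 without E9.5 replicate 1 and 2.82 with adjusted p = 0.0541 without E9.5 replicate 2). Ngfr, a neurotrophin receptor of crest and Schwann cells, rose by 1.72 ± 0.18 in log2 (adjusted p = 9.47e-08).

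Adult globins had the highest median of the cell type lists and embryonic globins were nearly gone at E16.5. All 4 adult globins rose, at a median of 6.18, and 11 of 14 genes of primitive red cells fell (median -3.47). Hbb-bs, an adult beta globin, measured 6394, 4902, 10721 and 7232 CPM in E16.5 hearts, against 43.4, 6.72 and 8.44 CPM in E9.5 hearts (log2 fold change 8.54 ± 1.16, adjusted p = 1.82e-05, and 7.40 against replicate 1 and 9.92 without E9.5 replicate 1). Hbb-bh1, an embryonic beta-type globin, measured 8.39, 2.44, 11.5 and 21.8 CPM in E16.5 hearts, against 2684, 1935 and 1640.3 CPM in E9.5 hearts (log2 fold change -7.57 ± 0.88, adjusted p = 3.57e-06). Alas2, the first enzyme of haem synthesis in red cells, was the member of the primitive list that rose (log2 fold change 2.38 ± 0.37, adjusted p = 5.47e-05). The part of blood left in the dissected hearts in these values was not tested, and reads of the near-identical Hbb-bs and Hbb-bt, and of Hba-a1 and Hba-a2, may be split between them. Of 21 tested macrophage genes 13 rose and 1 fell, with a median of 2.35, and a median of 1.73 against replicate 1. C1qa, a complement protein of tissue macrophages, measured 15.7, 11.9, 13.6 and 16.7 CPM in E16.5 hearts, against 0.634, 0.0974 and 0 CPM in E9.5 hearts (log2 fold change 5.82 ± 0.66, adjusted p = 1.56e-06, and 4.51 against replicate 1 and 8.11 without E9.5 replicate 1). F13a1, of tissue-resident macrophages, measured 10.9, 9.02, 9.93 and 10.9 CPM in E16.5 hearts, against 0.211, 0.357 and 0.432 CPM in E9.5 hearts (log2 fold change 4.93 ± 0.24, adjusted p = 9.59e-13, and 5.57 against replicate 1). Lyz2, the lysozyme of myeloid cells, measured 41.5, 25.5, 38.6 and 34.6 CPM in E16.5 hearts, against 28.1, 6.91 and 5.31 CPM in E9.5 hearts, so that E9.5 replicate 1 lay within the range of E16.5, and did not pass (log2 fold change 1.38 ± 0.58, adjusted p = 0.0510, and 0.32 against replicate 1 and 2.52 with adjusted p = 0.00177 without E9.5 replicate 1). Tpsb2, a mast cell protease, had 825 reads in E16.5 hearts and 2 in E9.5 hearts together, a ratio of 303 with a counting interval of 83.7 to 2508. Of 12 platelet lineage genes 4 rose and 2 fell, beside 32.1% higher and 32.8% lower of all genes, with Itga2b at -1.03.

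Markers of neighbouring organs were followed in 5 lists. Of the liver and foregut list 6 genes passed the filter on low counts, of which 2 rose and 3 fell, with sums of 30.9 to 38 CPM in E16.5 libraries and 9.87 to 83.1 CPM in E9.5 libraries. Ahsg, the plasma protein fetuin-A of liver and a member of that list, measured 14.3, 7.68, 13.1 and 12.6 CPM in E16.5 hearts, against 0.0604, 0 and 0.0332 CPM in E9.5 hearts and was among the 15 largest rises (log2 fold change 8.40 ± 0.52, adjusted p = 4.32e-11, and 7.55 against replicate 1 and 9.24 without E9.5 replicate 1). Of the lung list 6 genes passed the filter on low counts, of which 1 rose and 3 fell, with sums of 48.0 to 50.3 CPM in E16.5 libraries and 87.0 to 90.6 CPM in E9.5 libraries. Of the thymus list 3 genes passed the filter, and their sums were 5.21 to 11.9 CPM in E16.5 libraries and 9.02 to 13.7 CPM in E9.5 libraries. Of the skeletal muscle list, which holds Des, 7 genes passed the filter on low counts, of which 3 rose and 2 fell, with sums of 638 to 812 CPM in E16.5 libraries and 741 to 759.9 CPM in E9.5 libraries. Of 12 smooth muscle and great vessel genes 7 rose and 3 fell, with sums of 1701 to 3017 CPM in E16.5 libraries and 709 to 806 CPM in E9.5 libraries. Alb, Sftpc, Nkx2-1, Foxn1, Psmb11, Myod1, Myf5 and Pax7, markers of liver, lung, thymus and skeletal muscle, did not pass the filter. Myog, like Myod1 a defining marker of skeletal muscle, passed it, with 64 reads in all E16.5 libraries together and 0 in E9.5 libraries. Afp, the serum protein of fetal liver and yolk sac, measured 0, 0, 0.309 and 0.261 CPM in E16.5 hearts, against 0.211, 45.3 and 0.432 CPM in E9.5 hearts: the fall of 6.73 ± 1.89 in log2 (adjusted p = 0.00641, and -0.57 with adjusted p = 0.759 against replicate 1, -3.01 with adjusted p = 0.311 with the kind of library as a term, -1.16 with adjusted p = 0.561 without E9.5 replicate 2 and -7.45 without E16.5 replicate 3) rests on E9.5 replicate 2. Ttr, made by the same tissues, measured 0.832, 1.01, 0.802 and 0.782 CPM in E16.5 hearts, against 0.423, 4.67 and 0.432 CPM in E9.5 hearts, and its log2 fold change was -1.10 with all libraries and 1.0 without E9.5 replicate 2. The part of such tissue in the other differences was not tested. Myh8, a perinatal skeletal myosin, rose by 6.26 ± 0.30 in log2 (adjusted p = 8.27e-13) to 11.7 CPM in E16.5 hearts, against 0.149 CPM in E9.5 hearts, and Lmod1, of smooth muscle, fell by 3.56 ± 0.25 in log2 (adjusted p = 2.15e-09).

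Among the remaining lists, genes of complement and innate immunity rose in 13 of 20 cases, with a median log2 fold change of 1.53, and of 0.50 against replicate 1. Their sum was 407 to 545 CPM in E16.5 libraries, against 323, 119.7 and 111 CPM in E9.5 replicates 1 to 3. H2-D1, a class I antigen, did not pass (log2 fold change 1.60 ± 0.85, adjusted p = 0.114, and 0.79 with adjusted p = 0.0446 with the kind of library as a term, 0.26 against replicate 1 and 3.73 with adjusted p = 0.00167 without E9.5 replicate 1). Of 16 genes of the response to low oxygen 9 rose and 5 fell. Ndrg1 and Egln3, both induced by low oxygen in many cells, rose by 4.04 ± 0.21 in log2 (adjusted p = 2.36e-11) and 3.38 ± 0.19 in log2 (adjusted p = 6.78e-11). Hif1a, the sensor-controlled factor of that response, fell by 0.85 ± 0.09 in log2 (adjusted p = 1.77e-07). Of 22 antioxidant genes 11 rose and 6 fell, led by the metallothionein Mt1 (log2 fold change 2.92 ± 0.42, adjusted p = 2.90e-05). Of 18 splicing and RNA-binding genes 8 rose and 10 fell. Rbm20, which controls titin splicing, rose by 1.08 ± 0.11 in log2 (adjusted p = 2.82e-08). Ptbp2 and Celf1, regulators of embryonic splicing, fell by 0.82 ± 0.09 in log2 (adjusted p = 2.59e-07) and 0.69 ± 0.06 in log2 (adjusted p = 2.93e-09).

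The intermediate stages place these differences in time. Among the 1618 genes at least 4-fold higher in E16.5 hearts, the largest single step lay between E9.5 and E10.5 for 24%, between E10.5 and E12.5 for 49.4%, between E12.5 and E14.5 for 10.7% and between E14.5 and E16.5 for 15.9%. For the 592 genes at least 4-fold lower these shares were 15.7, 34.6, 21.3 and 28.4%. The first interval spans 1 day and the others 2. Per day the median step of the rising genes was 0.68, 0.58, 0.30 and 0.26 on the log2 scale over the 4 intervals, and that of the falling genes -0.57, -0.46, -0.33 and -0.42. The direction was the same in all 4 intervals for 52.9% of the rising and 52.5% of the falling genes. Relative to E9.5, the median of the fibroblast list was 1.0, 3.21, 3.78 and 4.57 at E10.5, E12.5, E14.5 and E16.5. That of the fatty acid oxidation list was 0.24, 0.57, 0.77 and 1.26, and that of the adult-type sarcomere -0.09, 0.13, 0.28 and 0.79, so that the sarcomere median moved more in the last interval than in any other. The primitive red cell list did not run one way, with medians of 0.80, 1.17, -1.56 and -3.47, so that its fall lay after E12.5. Replication genes had medians of -0.04, -0.39, -0.63 and -0.81 and the oncofetal list -0.30, -1.08, -1.65 and -2.0. The values of a list share the E9.5 libraries and describe 1 course. E9.5, E10.5 and E12.5 each hold both kinds of library described above, and the part of that difference in the early steps was not tested.

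**Figure D5:**
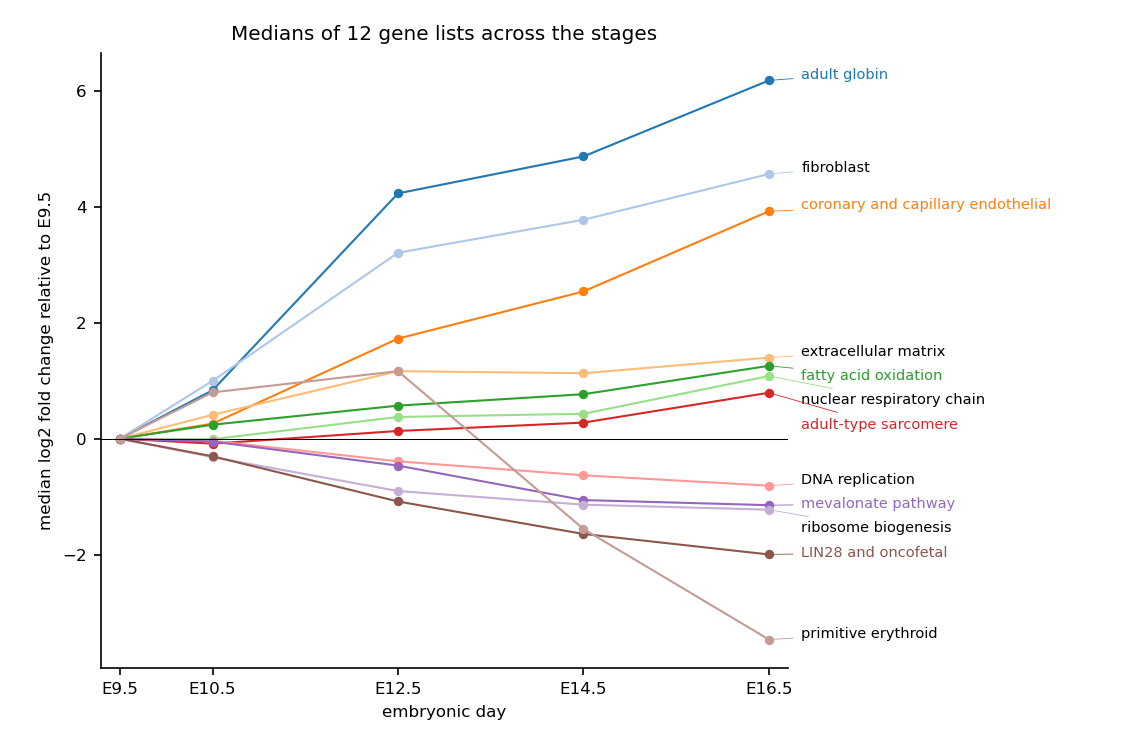
Median log2 fold change relative to E9.5 of 12 gene lists at each stage, from E9.5 (set to 0) to E16.5, on an axis of embryonic days. The fibroblast list reaches 4.57 and the LIN28 and oncofetal list -2.0 at E16.5.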

How the data were processed

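RNA of dissected hearts was sequenced in all 18 libraries. The authors deposited raw counts of reads per Ensembl gene, 1 table per library. Per the submitters' processing notes, Trimmomatic 0.36, Subread 1.5.2, featureCounts and STAR 2.5.2b were used, with the builds GRCm38 and mm10. Neither a strand setting nor an annotation release is given in the sources used here, so reads of overlapping genes may be shared or dropped. Coordinates, exon lengths and 3′ UTRs came from GENCODE on GRCm38, and promoters and microRNAs from RefSeq.

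Counts were filtered with filterByExpr, scaled by TMM and fitted with edgeR 4.0.16 (R 4.3.3), by the quasi-likelihood test with robust estimates. All 18 libraries shared 1 estimate of the spread, with stage as the only term, and the contrast was E16.5 minus E9.5. CPM used TMM-scaled library sizes, and RPKM divided them by kilobases of exon, the union of all annotated exons of a gene. A self-test on simulated counts (18885 genes) recovered 64% of genes changed 1.5-fold, 80% of those changed 2-fold and 98% of those changed 4-fold. It gave 5.03% false calls. Only 50 genes were changed at each size, and the simulated counts held no difference between the kinds of library. In the data 64.9% of genes were called and E9.5 held both kinds, so these rates need not hold for this comparison.

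The members, lists and pairs were chosen with earlier results of these data known. The genes named are the 15 largest rises and falls of at least 10 CPM, up to 3 members per direction and list of at least 5 CPM, the most abundant member of a list that did not pass, isoform pairs, mevalonate enzymes, the 10 largest gains and losses in CPM, and 5 steady genes, and some of the genes so chosen are not reported here. Cdk1, Col1a1, Cycs, Igf2bp1, Lin28b, Mcm5, Myog, Nkx2-5, Top2a, mt-Atp8, mt-Co3, mt-Nd4l, Nrf1 and Rxrg were named after their values were seen. Alternatives were other scalings, filters and tools (DESeq2 1.42.0, limma 3.58.1), the replicate number as a block, the kind of library as a term or E9.5 replicate 1 alone, thinned counts, and each library left out.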

Additional observations from a re-analysis of the deposited data

Results flagged for a closer look

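Of 247 values compared over the 4 E16.5 libraries, 16 had 1 library far from the other 3 by Dixon's test, and chance flags about 1 in 20 such groups. The 3 E9.5 libraries were too few for that test. The library apart was the highest for Acat2 (19.6 CPM in replicate 4), Cacna1h (92.8 CPM in replicate 2), Cdkn2c (74.7 CPM in replicate 4), Fmo2 (18 CPM in replicate 3), Hspg2 (517 CPM in replicate 2), Mvk (24.6 CPM in replicate 4), Nrap (352 CPM in replicate 2), Nrg1 (4.29 CPM in replicate 3) and Sdf4 (119 CPM in replicate 4). It was the lowest for Apln (25.1 CPM in replicate 2), Jag1 (26.7 CPM in replicate 4), Ltbp3 (100.2 CPM in replicate 4), Mef2c (112 CPM in replicate 1), Nog (1.38 CPM in replicate 1), Sln (159 CPM in replicate 2) and mt-Atp6 (6.04 CPM in replicate 2). Sln, the atrial inhibitor of the calcium pump, was 159 CPM in E16.5 replicate 2 and 265 to 277 CPM in the other 3 E16.5 libraries, all far above E9.5. Hspg2, perlecan, was 517 CPM in E16.5 replicate 2 and 352 to 375 CPM in the others.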

How the results depend on the processing

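The count of changed genes, its split by direction and the counts of at least 2-fold stayed within 1.5 times of the reported values under all alternatives except the ones named here. With at least 10 CPM in 3 libraries, 10851 genes were tested, 4015 were higher, and 2318 changed at least 2-fold (1547 higher, 771 lower). A test against a 2-fold threshold (glmTreat) called 3311 genes (2234 higher, 1077 lower), by its construction. Leaving out 1 library at a time, the calls ranged over 11224 to 12634 (5575 to 6473 higher, 5649 to 6161 lower) and those of at least 2-fold over 5082 to 6111 (3137 to 3924 higher, 1944 to 2187 lower). Under other scalings the median log2 fold change over all genes ranged between -0.0494 with library totals alone and 0.0188 with DESeq2's size factors.

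Of 4830 values, 1 per named gene and alternative, 4714 kept their side of the threshold, 83 lost the call, of which 55 in the test against 2-fold, and 30 gained it. The sign was opposite to the reported one for 62 values in 18 genes, and 59 of these passed in neither test. It turned for 3 values that passed in at least 1. Outside the 2-fold test and the libraries left out, the call was lost by Afp (replicate block, kind of library as a term, against replicate 1, limma-voom), Cacna1c (fitted on the libraries of these stages alone), Cycs (kind of library as a term, against replicate 1), E2f2 (against replicate 1), Eef1a1 (against replicate 1), Fabp7 (fitted on the libraries of these stages alone), H19 (against replicate 1), Hk2 (against replicate 1), Kdr (kind of library as a term, against replicate 1), Ptch1 (against replicate 1), Ttn (fitted on the libraries of these stages alone, kind of library as a term) and mt-Atp8 (against replicate 1). Outside the 2-fold test and the libraries left out, the call was gained by Actc1 (10 CPM in 3 libraries), H2-D1 (kind of library as a term, limma-voom), Hspg2 (replicate block), Igf2 (10 CPM in 3 libraries, kind of library as a term, DESeq2), Lyz2 (RLE size factors, mitochondrial and globin genes left out, 10 CPM in 3 libraries, DESeq2, limma-voom), Pmvk (kind of library as a term), Tbx18 (kind of library as a term, against replicate 1), Tbx20 (library totals, kind of library as a term) and Tet1 (kind of library as a term, against replicate 1). Against E9.5 replicate 1, Ttn had a log2 fold change of 0.10 and Notch1 of 0.52, and Ttr ranged from -1.57 to 1.0 with 1 library left out, turning sign without E9.5 replicate 2. E9.5 replicates 2 and 3 differ from replicate 1 in the macrophage transcripts and with exon length, and which of these moves Ttn and Notch1 was not tested; the cause was not tested for Ttr either.

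With the replicate number as a block, 11927 genes passed (5888 higher, 6039 lower) and 5324 changed at least 2-fold (3319 higher, 2005 lower). The deviations of same-numbered libraries from their stage means had correlations of -0.000589, 0.116 and -0.0178. Those of differently numbered libraries ran from -0.172 to 0.152. The same-numbered values lie within that range, so they give no sign of a pairing by number but cannot exclude one. Depth limits genes of few reads, such as the 3 reads behind Fmo2, Yipf7 and Ahsg at E9.5, where the size of a fold is uncertain. With 3 E9.5 libraries of 2 kinds, the spread within E9.5 limits the precision of every fold change.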
